A study of Mus musculus with 12 samples.

Results

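Dusp1, Dusp4, Dusp5, Dusp6, Zfp36, Btg2, Ier2, Ier3, Ier5 and Gadd45b are early-response genes, and several of them encode products that damp the inducing signal. They were taken as all 16 probes that the platform annotation assigns to these 10 symbols, of 19057 symbols and 45281 probes on an Illumina mouse beadchip. The RNA came from the whole heart of male mice, strain C57Bl/6, at 8 weeks of age. One group of 6 samples came from mice that ran on a wheel at will for 7 days, and 6 samples of sedentary mice of the same strain, sex and age were the controls. No genetic change or drug is named for either group. The replicates are numbered within each group, nothing in the labels says that each is a separate animal, and p-values therefore measure the spread between these samples. Precision is limited by having 6 arrays a group. Values are log2 intensities after background correction and quantile normalization, and a probe was tested if its detection p was under 0.01 on at least 6 of the 12 arrays.

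Growth factors, stretch, hormones and stress activate the MAP kinases ERK, JNK and p38, and these drive a first wave of transcription within minutes. That wave holds activators such as Fos, and also brakes. The dual-specificity phosphatases (Dusp) remove phosphate from the MAP kinases, Zfp36 (tristetraprolin) binds AU-rich elements of short-lived mRNAs and leads them to deadenylation, and Btg2 binds the same deadenylase complex and restrains proliferation. Ier2, Ier3 and Ier5 are immediate early response proteins, and Gadd45b is a stress sensor that binds kinases upstream of p38 and JNK. In the heart, ERK and p38 activity is set in part by Dusp1, Dusp4 and Dusp6.

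The promoters are shown because genes of this class are classically driven by serum response factor, CREB, Egr factors or NF-kB. The sequence shows how far the members with measured levels differ in matches to these elements close to the start. Promoters of 8 of the 10 genes were matched, and 6 motifs were searched on both strands in the 250 bases before the annotated start. These were the CArG box of serum response factor, the cyclic AMP response element TGACGTCA, the AP-1 site TGANTCA, the Egr site GCGNGGGCG, the NF-kB site and the TATA box TATAAA. Capitals mark the matches in the following sequences (RefSeq, GRCm38.p6), which are written 5′ to 3′ on the strand of the gene, with Fos for comparison.
Dusp1 (chr17:26508473-26508722, minus strand): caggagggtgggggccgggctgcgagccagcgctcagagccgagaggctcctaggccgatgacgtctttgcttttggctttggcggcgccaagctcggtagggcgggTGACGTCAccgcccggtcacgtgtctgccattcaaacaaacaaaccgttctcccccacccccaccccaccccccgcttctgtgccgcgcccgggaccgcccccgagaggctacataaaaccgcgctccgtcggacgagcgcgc
Dusp5 (chr19:53528895-53529144, plus strand): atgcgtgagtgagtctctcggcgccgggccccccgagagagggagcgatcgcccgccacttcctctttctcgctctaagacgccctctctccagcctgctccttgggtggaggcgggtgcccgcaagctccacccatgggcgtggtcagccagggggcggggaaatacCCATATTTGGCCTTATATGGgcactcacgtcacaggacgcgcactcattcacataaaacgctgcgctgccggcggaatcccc
Zfp36 (chr7:28379229-28379478, minus strand): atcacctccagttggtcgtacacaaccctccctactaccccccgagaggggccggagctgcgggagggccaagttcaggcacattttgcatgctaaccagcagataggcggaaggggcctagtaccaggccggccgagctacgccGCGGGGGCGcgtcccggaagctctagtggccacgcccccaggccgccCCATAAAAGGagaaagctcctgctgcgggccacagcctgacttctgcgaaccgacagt
Ier3 (chr17:35821463-35821712, plus strand): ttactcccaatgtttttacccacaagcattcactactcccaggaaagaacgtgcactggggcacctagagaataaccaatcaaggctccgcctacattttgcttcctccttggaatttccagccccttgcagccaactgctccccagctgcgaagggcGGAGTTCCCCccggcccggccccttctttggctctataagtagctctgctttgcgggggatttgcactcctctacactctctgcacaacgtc
Gadd45b (chr10:80929841-80930090, plus strand): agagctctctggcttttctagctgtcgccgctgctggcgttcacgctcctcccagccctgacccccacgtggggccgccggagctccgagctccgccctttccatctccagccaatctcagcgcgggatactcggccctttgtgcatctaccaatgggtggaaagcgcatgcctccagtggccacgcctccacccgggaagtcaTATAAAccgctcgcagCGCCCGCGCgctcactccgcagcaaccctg
Fos (chr12:85473640-85473889, plus strand): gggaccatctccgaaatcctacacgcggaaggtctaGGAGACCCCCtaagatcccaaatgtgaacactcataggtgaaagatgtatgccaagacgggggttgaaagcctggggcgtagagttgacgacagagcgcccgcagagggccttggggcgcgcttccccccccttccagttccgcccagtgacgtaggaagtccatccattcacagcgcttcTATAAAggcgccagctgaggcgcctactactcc
Dusp1 held a cyclic AMP response element from base -143 to -136 and Dusp5 held a pair of adjacent CArG boxes from -82 to -73 and from -72 to -63, counted back from the start. Zfp36 had a CArG box at -58 to -49 and an Egr site at -105 to -97. Ier3 had an NF-kB match at -92 to -83, and Gadd45b had a TATA box at -46 to -41 and an Egr match at -30 to -22. Fos matched the NF-kB motif at -214 to -205 and the TATA box at -33 to -28. No 2 matches overlapped. Among 32851 promoters of the same length, 1.47% held a CArG box, 1.55% a cyclic AMP response element, 4.7% an Egr site, 3.9% an NF-kB site, 12.4% a TATA box and 6.75% an AP-1 site. The window of Dusp6 held none of the 6 motifs. These matches are letters in a short window and are not evidence of binding. Sites farther upstream and variants of the searched letters were not looked for. The lack of a match, as for a CArG box or cyclic AMP response element in Fos, does not show that a gene lacks the element.

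Of the 16 probes, 8 passed the filter, and each of these was detected on all 12 arrays, so the filter did not turn on either group. They cover 7 genes, with 1 probe each for Dusp1, Dusp4, Dusp5, Zfp36, Ier3 and Gadd45b and a brighter and a dimmer probe for Dusp6. The single probes of Btg2, Ier2 and Ier5 were detected on 0 of 12 arrays. Btg2 lay between 4.29 and 4.84, Ier2 between 4.35 and 4.89 and Ier5 between 4.30 and 4.78, so these 3 genes have only a bound in both groups and no fold is given. A further probe of Gadd45b was not detected on any array, and 3 further Dusp4 probes were detected on 0, 1 and 2 arrays. A further Dusp6 probe was detected on 4 arrays, and those were the 4 arrays whose raw background was high. It lay between 5.10 and 5.32 there and between 4.29 and 4.81 on the other 8.

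**Figure D1:**
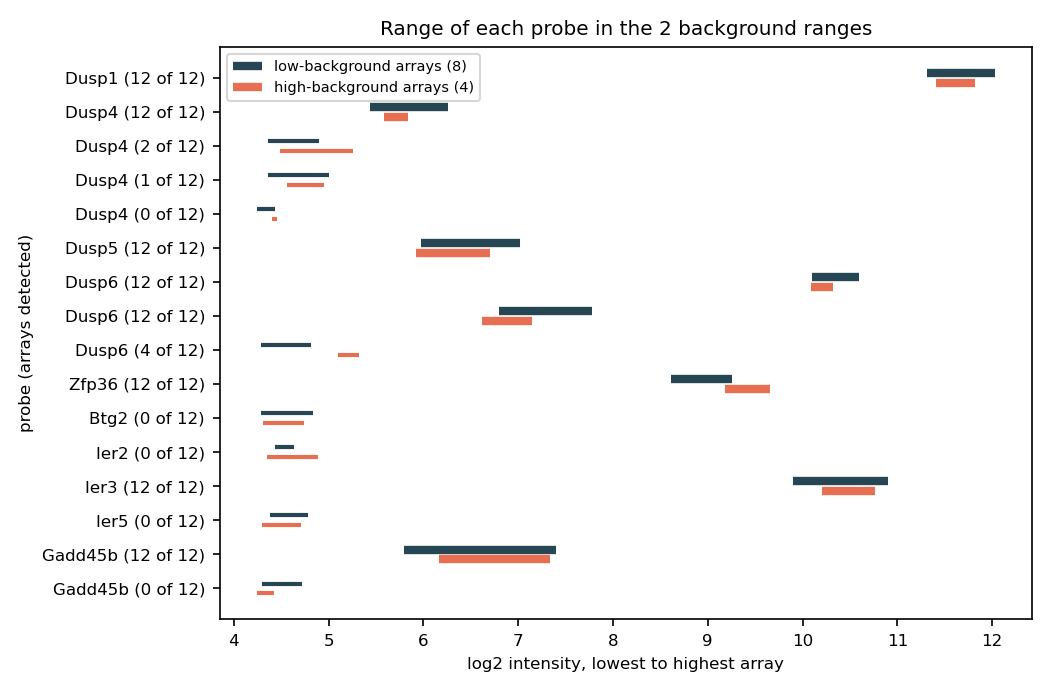
Range of normalized log2 intensity of each of the 16 probes, drawn from the lowest to the highest array, for the 8 low-background and the 4 high-background arrays; thick bars are the 8 probes detected on all 12 arrays. The third Dusp6 probe is the only one detected on exactly the 4 high-background arrays, and its ranges do not overlap.

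Raw signals fell into 2 ranges, the array median being 48.6 to 53.3 for 8 arrays and 130.5 to 138.6 for exercised replicates 2, 3 and 6 and sedentary replicate 2. Hepatocyte markers averaged 10.89, 12.28 and 13.08 in exercised replicates 1, 5 and 6 and 6.32 to 8.52 on the other 9 arrays, while Alb was not among the 8 of 10 such markers that passed the filter. Cardiomyocyte markers averaged 13.79 to 14.10 on the 12 arrays. Summed levels in a whole organ cannot tell fewer cells of a type from less RNA per cell. Atrial markers averaged 11.75 to 13.93 in exercised and 10.67 to 14.05 in sedentary hearts, with 4 of 4 tested above 0. Macrophage, endothelial, smooth muscle and fibroblast markers lay below 0. Macrophage markers averaged 8.82 to 9.15 in exercised and 9.22 to 9.78 in sedentary hearts, with 8 of 8 tested below 0. Endothelial markers averaged 9.28 to 9.53 against 9.60 to 9.92, with 7 of 7 tested below 0, and smooth muscle markers 8.91 to 9.33 against 9.47 to 9.81, with 4 of 4 below 0. Fibroblast markers averaged 9.02 to 9.45 against 9.15 to 9.84, with 6 of 6 below 0. With median scaling these counts were 7 of 8, 6 of 7, 3 of 4 and 4 of 6. The feedback genes are expressed in many cell types, and the part of these markers, atrial ones included, of the background range and of liver RNA in the following differences was not tested beyond the fits given.

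No feedback gene passed the test between exercised and sedentary hearts. The differences on the log2 scale were -0.25 for Dusp1, -0.17 for Dusp4, -0.36 for Dusp5 and, by its brighter probe, -0.22 for Dusp6, and they were 0.33 for Ier3, 0.43 for Gadd45b and 0.07 for Zfp36. With median scaling the value of Dusp4 turned to 0.03, and the others kept their sign. In limma with Benjamini-Hochberg adjustment over 17098 probes, 0 of the 8 member probes passed an adjusted p of 0.05, against 15 probes or 0.0877% of all tested (0.0819% lower and 0.00585% higher). At an unadjusted p under 0.05 there were 3 member probes, both probes of Dusp6 on the lower side and Ier3 on the higher side, against 14.6% of all probes (9.66% lower and 4.97% higher). With array weights 2 genes passed, Dusp1 and the dimmer probe of Dusp6, while 576 of all probes passed as well. Of the 7 genes 4 were below 0, against 56.6% of 9843 genes and 54.7% of all probes, and their median difference was -0.17, against -0.04 over all genes. With median scaling 3 of 7 were below 0, with a median of 0.03, and within the low-background arrays 5 of 7 with a median of -0.12. The members were chosen with earlier results of these arrays known.

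**Figure D2:**
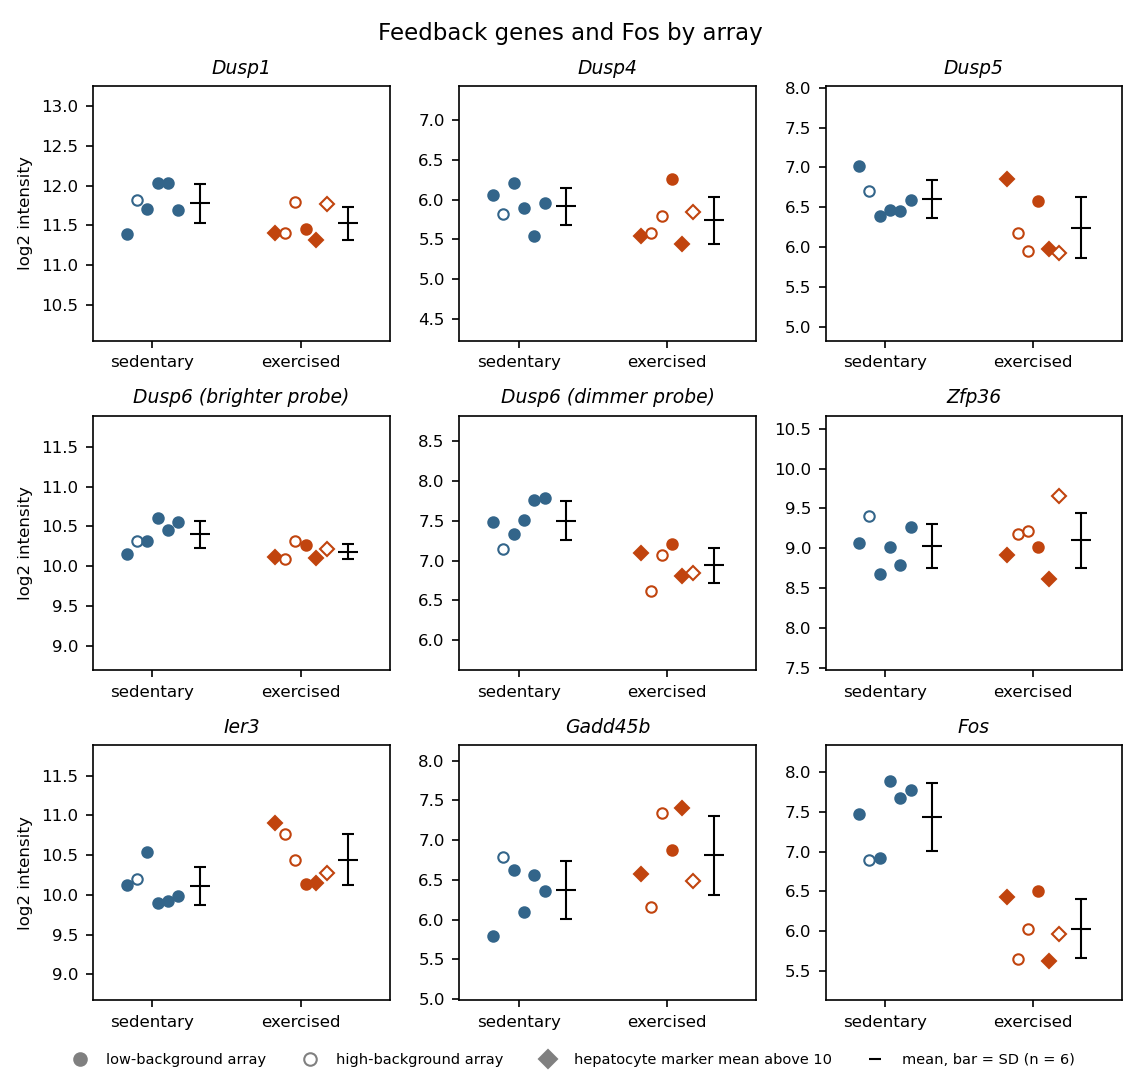
Normalized log2 intensity of the 8 tested feedback probes and of Fos on each of the 12 arrays (blue sedentary, orange exercised; open marks are high-background arrays, diamonds are arrays with a hepatocyte marker mean above 10; bars are mean and SD, n = 6). Each panel spans the same log2 distance, so that the separation in Fos, where the groups do not overlap, can be set beside the overlap in all feedback probes.

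Dusp1 encodes a nuclear phosphatase of p38, JNK and ERK. Its lowest, median and highest levels were 11.31, 11.43 and 11.80 in exercised hearts and 11.39, 11.76 and 12.03 in sedentary hearts. The groups overlap: sedentary replicate 1 sits with the low exercised arrays, and exercised replicates 3 and 6 sit among the sedentary ones. The difference was -0.25 (SE 0.12, 95% interval -0.52 to 0.01; unadjusted p 0.0607, limma adjusted p 0.355, n = 6 a group), a level 0.84 times that of sedentary hearts. The value was -0.38 within the 8 low-background arrays (limma adjusted p 0.229) and -0.30 with the hepatocyte marker mean as a covariate, and it was -0.15 with median scaling (limma adjusted p 0.66). Exercised arrays rich in liver transcripts were at 11.41, 11.31 and 11.77, spread over the range of their group.

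Dusp4, a nuclear relative of Dusp1, was dim. Its exercised arrays had 5.44, 5.68 and 6.26 as lowest, median and highest, and its sedentary arrays 5.55, 5.92 and 6.21. Exercised replicate 4 held the highest value of all 12 arrays and exercised replicate 5 the lowest. The difference was -0.17 (SE 0.16, 95% interval -0.51 to 0.16; limma adjusted p 0.581), and its sign turned to 0.03 with median scaling and to 0.002 with the hepatocyte covariate.

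Dusp5 encodes a nuclear phosphatase that acts on ERK. Its levels were 5.92, 6.08 and 6.85 in exercised hearts and 6.39, 6.53 and 7.02 in sedentary hearts. Exercised replicates 2, 3, 5 and 6 lay below every sedentary array, and exercised replicates 1 and 4 lay within the sedentary range. The difference was -0.36 (SE 0.18, 95% interval -0.74 to 0.02; unadjusted p 0.059, limma adjusted p 0.353). Of those 4 low arrays 3 have a high background. Restricted to low-background arrays the difference was -0.12, and restricted to high-background arrays, which hold a single sedentary array, it was -0.68. With the background range as a block it was -0.28 (limma adjusted p 0.563), with median scaling -0.15, with array weights -0.15 and with the deposited values -0.13.

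Dusp6 encodes the cytoplasmic phosphatase of ERK, and its transcription is itself a readout of ERK activity. The brighter probe was at 10.09, 10.17 and 10.31 in exercised and at 10.15, 10.39 and 10.60 in sedentary hearts. All 6 exercised arrays were under the sedentary median, and 3 of them were under the whole sedentary range. The difference was -0.22 (SE 0.09, 95% interval -0.41 to -0.02; unadjusted p 0.0335, limma adjusted p 0.312), and -0.05 with median scaling. The dimmer probe was at 6.62, 6.96 and 7.21 in exercised and at 7.15, 7.50 and 7.78 in sedentary hearts. Here 5 of 6 exercised arrays lay under the sedentary range, and the lowest sedentary array was replicate 2, the only one with a high background. The Dusp6 dimmer probe differed by -0.56 (SE 0.14, 95% interval -0.86 to -0.27), which is 0.677 times the sedentary level. It had the smallest p of the 8 feedback probes (unadjusted p 0.00104, limma adjusted p 0.132), in place 133 of 17098 by p. It was at -0.54 within the low-background arrays, -0.52 with the hepatocyte covariate and -0.53 without the 3 arrays rich in liver transcripts. The Dusp6 dimmer probe was at -0.41 without background correction, -0.32 with median scaling (limma adjusted p 0.567) and -0.29 with the deposited values. Without sedentary replicate 2 it was at -0.63 and passed (limma adjusted p 0.0397), in a fit that called 266 of all probes and left the high-background range with exercised arrays alone. Dusp6 is the only feedback gene with a pair of tested probes, and they disagree in size. The dimmer probe minus the brighter one averaged -3.24 ± 0.18 with exercise and -2.90 ± 0.21 without (SD, n = 6), a shift of -0.35 (exact two-sided permutation p = 0.0152 over 924 assignments). That shift depended on the background correction and scaling: it was -0.27 with median scaling (exact p = 0.00866), -0.20 without background correction (exact p = 0.0433), -0.19 with an offset of 50 (exact p = 0.0541) and -0.09 with the deposited values (exact p = 0.247). The probes' targets within the transcript are not analysed here.

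Zfp36 did not separate the groups. Its exercised arrays were at 8.61, 9.10 and 9.66 and its sedentary arrays at 8.67, 9.04 and 9.40. The highest array of each group was one with a high background, and Zfp36 ranged from 9.18 to 9.66 on the 4 high-background arrays and from 8.61 to 9.26 on the other 8. The difference was 0.07 (SE 0.17, 95% interval -0.29 to 0.42; limma adjusted p 0.856). It turned to -0.11 within the low-background arrays and to -0.09 with the background range as a block.

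Ier3, which modulates cell survival and ERK signalling, lay on the higher side. Its levels were 10.14, 10.36 and 10.90 in exercised and 9.90, 10.06 and 10.54 in sedentary hearts. All 6 exercised arrays lay above the sedentary median, while only exercised replicates 1 and 2 exceeded sedentary replicate 3, the highest control. The difference was 0.33 (SE 0.15, 95% interval 0.01 to 0.65; unadjusted p 0.0449, limma adjusted p 0.335), a ratio of 1.26. It was 0.30 within the low-background arrays, 0.39 with the hepatocyte covariate 0.33 without the arrays rich in liver transcripts and 0.50 with median scaling.

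Gadd45b had the widest spread between arrays of the 8 probes, with an SD of 0.49 in exercised and 0.37 in sedentary hearts. Its exercised arrays were at 6.16, 6.72 and 7.40 and its sedentary arrays at 5.80, 6.46 and 6.79. Exercised replicates 3, 4 and 5 exceeded every sedentary array, and exercised replicate 2 lay below the sedentary median. The difference was 0.43 (SE 0.22, 95% interval -0.05 to 0.91; unadjusted p 0.0735, limma adjusted p 0.375). Within the low-background arrays it was 0.66 (limma adjusted p 0.209), and on the 4 high-background arrays, of which 1 is sedentary, -0.12. It was 0.28 without background correction and 0.18 with the deposited values.

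**Figure D3:**
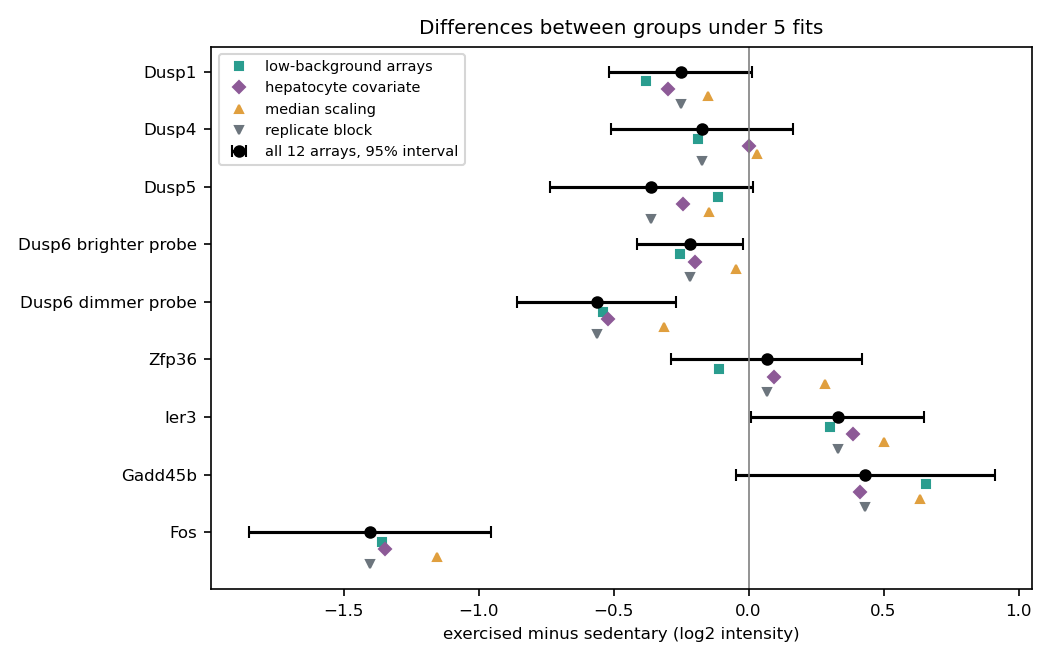
Exercised minus sedentary difference of each tested feedback probe and of Fos on the log2 scale, with 95% intervals for the fit on all 12 arrays, and the values of 4 other fits as coloured marks. The intervals of Dusp1, Dusp4, Dusp5, Zfp36 and Gadd45b include 0, and none of the feedback probes reaches the interval of Fos, which ends at -0.95.

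These genes share inducing signals with Fos, and the next question was whether they followed it. Fos, a subunit of the AP-1 transcription factor, was at 5.63, 6.00 and 6.51 in exercised and 6.89, 7.57 and 7.89 in sedentary hearts, with no overlap between the groups, whereas 0.749% of all probes had every exercised array below every sedentary array and 0 of 8 feedback probes did. Fos fell by 1.40 (SE 0.21; limma adjusted p 0.0463), a call that was lost in 18 of 31 other fits, while its value stayed below 0 in all of them. The size of the fall depended on the background correction, at -0.91 without it, -0.89 with an offset of 50 and -0.61 with the deposited values. The change of every feedback gene lay above that of Fos, by 1.04 (SE 0.29) for Dusp5, 1.15 (SE 0.27) for Dusp1, 1.19 (SE 0.26) for the brighter probe of Dusp6 and 1.23 (SE 0.29) for Dusp4. For Zfp36 the distance was 1.47 (SE 0.28), for Ier3 1.73 (SE 0.28) and for Gadd45b 1.84 (SE 0.31). The Dusp6 dimmer probe lay nearest to Fos, at 0.84 (SE 0.27). With the deposited values the distances were smaller, for example 0.36 (SE 0.16) for Dusp1 and 0.48 (SE 0.12) for Dusp5. In limma on each probe minus Fos, 7 of 7 members passed by their brightest probe, with adjusted p between 2.96e-06 and 0.000612. Since the fall of Fos is in every such difference, 99.8% of all probes passed too, and the count does not set the feedback genes apart. On the 4 high-background arrays alone, of which 1 is sedentary, the distances ran from 0.33 for Dusp5 to 1.30 for Ier3.

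Whether arrays with more Fos held more of a member was tested within groups, and no slope passed. In limma with group and Fos level as terms, the slope per log2 unit of Fos was 0.32 (SE 0.23) for Dusp5, 0.20 (SE 0.12) for the brighter probe of Dusp6, 0.11 (SE 0.17) for Dusp1, 0.11 (SE 0.22) for Dusp4 and 0.01 (SE 0.23) for Zfp36. It was -0.25 (SE 0.20) for Ier3 and -0.30 (SE 0.30) for Gadd45b. With adjusted p from 0.512 to 0.987 in limma, 0 of 7 members passed, as did 0 of 17097 probes, and 0 of 7 had an unadjusted p under 0.05, against 9.4% of all probes. The Dusp6 dimmer probe, which is outside that count of genes by their brightest probe, had a slope of 0.50 (SE 0.14; unadjusted p 0.00319, limma adjusted p 0.498). By their brightest probes the 4 phosphatases have slopes above 0, that of Zfp36 is near 0, and Ier3 and Gadd45b have slopes below 0. In this fit each is smaller than 2 of its SE, but the slopes depended on the processing. That of Zfp36 turned to -0.07 with cyclic loess. With the replicate block that of Dusp4 turned to -0.315 and that of Ier3 to 0.06. With median scaling the slopes were 0.95 (SE 0.39) for Zfp36, 0.53 (SE 0.24) for Dusp1 and 0.50 (SE 0.23) for the brighter Dusp6 probe. Those of Dusp4, Dusp5, Ier3 and Gadd45b stayed within 2 SE there. For Zfp36 the slope was 0.42 (SE 0.16) with the background range as a block and 0.42 (SE 0.15) on low-background arrays. For Ier3 it was -0.55 (SE 0.15) without exercised replicates 1, 5 and 6. None of these passed in limma. Probes with an unadjusted slope p under 0.05 in limma numbered 153 with median scaling, 345 with the background block and 507 on low-background arrays. They numbered 3233 without exercised replicates 1, 5 and 6, against 1607 in the fit given first.

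The next comparison asked whether the members varied together between arrays. Among 21 pairs of the 7 genes, with Dusp6 by its brighter probe, using deviations from the group means on the 12 arrays, Pearson's r ran from -0.56 to 0.74 with a median of -0.06, with 9 pairs above 0, and 0 pairs passed Benjamini-Hochberg adjustment over the 21. The highest was that of Dusp1 with Dusp6 (r = 0.74, permutation p = 0.0114, adjusted 0.239; Spearman's rho = 0.64, permutation p = 0.0308, adjusted 0.637), with r = 0.70 without exercised replicate 3 and sedentary replicate 5, the arrays farthest from the median of Dusp1, and 0.78 on the 8 low-background arrays. The lowest was that of Dusp1 with Dusp5 (r = -0.56, permutation p = 0.0627, adjusted 0.659; rho = -0.53, permutation p = 0.0911, adjusted 0.637), with r = -0.47 without the same arrays and -0.37 on the 8 low-background arrays. On those 8 arrays other pairs lay farther out, with r = -0.91 for Dusp5 with Gadd45b (-0.39 on all 12 arrays), -0.66 for Zfp36 with Gadd45b (-0.31) and 0.63 for Dusp5 with Zfp36 (-0.06), none of which was tested within that range. Deviations on one array share its RNA, background and normalization.

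**Figure D4:**
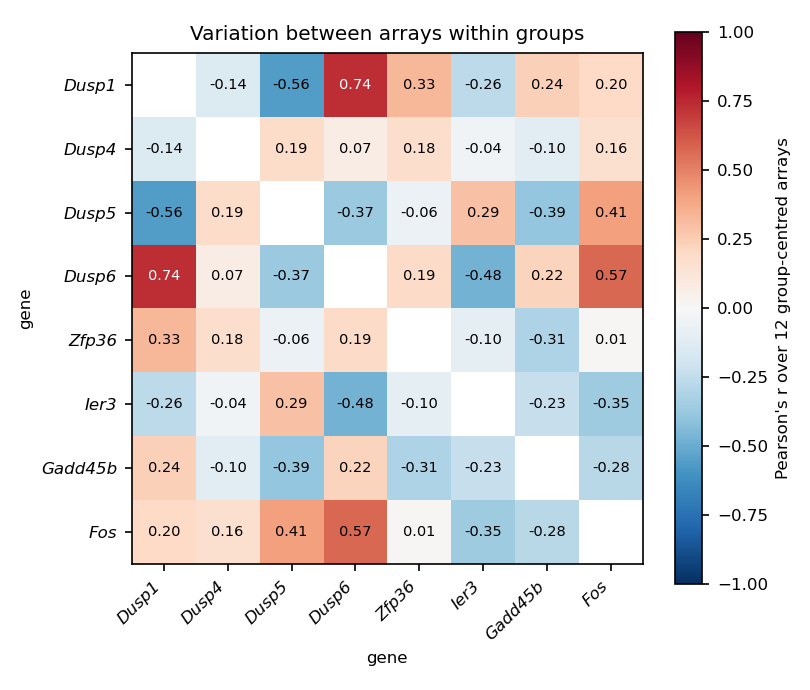
Pearson's r between the 7 tested feedback genes and Fos over 12 arrays after subtracting each group's mean (red above 0, blue below 0). Dusp1 and Dusp6 form the strongest positive pair at 0.74, and Dusp1 and Dusp5 the strongest negative one at -0.56.

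The gene most like each member was sought by Pearson's r of these deviations. The search took all genes with a symbol and a tested probe except the feedback genes, and gave a different gene each time. These were Ppic for Dusp1 (r = 0.94), Thumpd2 for Dusp4 (0.83), Alpk3 for Dusp5 (0.94), Fcgr2b for Dusp6 (0.92), Atrn for Zfp36 (0.91), Xntrpc for Ier3 (0.89) and Eola1 for Gadd45b (0.88). Each r is the highest among all the genes searched over 12 arrays and is given as a description. Of these 7 genes, 3 lay on the same side of 0 as their member in the group comparison and 4 on the other side. Ppic, an endoplasmic cyclophilin, differed by -0.27 (SE 0.10), Fcgr2b, the inhibitory Fc receptor, by -0.42 (SE 0.12) and Atrn by 0.21 (SE 0.18), as did Dusp1, Dusp6 and Zfp36 in sign. Alpk3, a kinase of the muscle M-band, was at 0.06 (SE 0.08), Thumpd2 at 0.04 (SE 0.16), Xntrpc at -0.21 (SE 0.16) and Eola1 at -0.08 (SE 0.12), opposite to Dusp5, Dusp4, Ier3 and Gadd45b. Their limma adjusted p ran from 0.177 to 0.914.

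The other MAP kinase phosphatases and brakes of ERK lay more often above 0 than the 4 Dusp members, a difference that was not tested. The 3 below 0 were Dusp10 at -0.23, Spry4 at -0.29 and Spred1 at -0.19. Of 8 tested genes 5 were above 0, with a median of 0.24 (4 of 8 and 0.12 with the hepatocyte covariate), and 2 of 8 had an unadjusted p under 0.05 on the higher side, against 5.18% of all genes; 0 passed over all probes in limma. Dusp8, a phosphatase of JNK and p38, was at 8.40, 8.62 and 9.01 in exercised and 8.01, 8.25 and 8.60 in sedentary hearts, a difference of 0.37 (SE 0.13; limma adjusted p 0.245). Dusp7, the closest relative of Dusp6 among ERK phosphatases, was at 10.43, 10.60 and 10.90 against 10.25, 10.39 and 10.48, a difference of 0.26 (SE 0.09; limma adjusted p 0.258). For Dusp7 5 of 6 exercised arrays exceeded the sedentary range, and the value was above 0 in 31 of 31 other fits, with 0.205 as the lowest and 0.42 as the highest. Atypical phosphatases, which lack the kinase-binding domain, had 6 of 9 below 0 and a median of -0.04, and 2 of 9 with a median of 0.13 under median scaling. The MAP kinases and the kinases above them had 8 of 13 above 0 and a median of 0.08 (11 of 13 and 0.26 with median scaling), with Mapk9 (JNK2) at 0.24 (SE 0.11) and Mapk8 (JNK1) at 0.28 (SE 0.135), and 0 passed in either list. With the background block Mapk9 was at 0.13 and Mapk8 at 0.15.

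Partners of Zfp36 and Btg2 in mRNA decay are given next. Of 12 tested genes of AU-rich decay and deadenylation 9 were above 0, with a median of 0.07, and with the background block 6 of 12 with a median of 0.001. Cnot7, a catalytic deadenylase subunit, differed by 0.43 (SE 0.18; limma adjusted p 0.302), and by 0.21 with that block. In the Btg and Tob family 3 of 4 were above 0 with a median of 0.27, which was 0.08 with the background block and -0.01 on the high-background arrays. Tob2, which binds the deadenylase as Btg2 does, differed by 0.37 (SE 0.13; limma adjusted p 0.241), and by -0.09 on the high-background arrays. Its difference kept its sign in 30 of 31 other fits, and 2 of the 31 called it. Relatives of Gadd45b and Ier5 and targets of p53 had 9 of 14 above 0 and a median of 0.10, and 6 of 14 with a median of -0.03 within the low-background arrays. Among them Gadd45a was at 0.30 (SE 0.11), Sesn1, a stress-induced regulator of mTORC1, at 0.43 (SE 0.17) and Phlda3, a repressor of Akt, at -0.33 (SE 0.135), with limma adjusted p of 0.259, 0.281 and 0.295. With the background block Sesn1 was at 0.26, and with median scaling Phlda3 was at -0.10. In these 3 lists 0 genes passed over all probes in limma in the fit given first.

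Feedback genes of NF-kB and cytokine signalling were below 0 in 11 of 11 tested cases, with a median of -0.175, against 56.6% of all genes below 0. That count was 4 of 11 with median scaling, where the list median turned to 0.06, and 7 of 11 within the low-background arrays. Tnfaip3 (A20), which removes activating ubiquitin chains, was at 4.97, 5.11 and 5.51 in exercised and 5.38, 5.68 and 6.27 in sedentary hearts, with 5 of 6 exercised arrays under the sedentary range. It differed by -0.53 (SE 0.16; unadjusted p 0.00569, limma adjusted p 0.205), and 0 of the 11 passed over all probes. Its probe was dim and was detected on 11 of 12 arrays, and the difference was -0.23 without background correction and -0.13 with the deposited values, so its size is uncertain. With array weights it was -0.60 (limma adjusted p 0.0493). With the macrophage and endothelial lists lower in the same arrays, the part of those cells in this list was not tested. Immediate early transcription factors had 10 of 13 below 0, a median of -0.29 (8 of 13 and -0.14 with median scaling) and 7 genes at an unadjusted p under 0.05, all lower, against 10.4% of all genes, and Fos alone passed. The 6 tested factors that bind early-response promoters had 5 below 0 and a median of -0.10 (2 of 6 and 0.08 with median scaling), with Srf at -0.26 (SE 0.14; limma adjusted p 0.392), and at -0.03 within the low-background arrays.

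**Figure D5:**
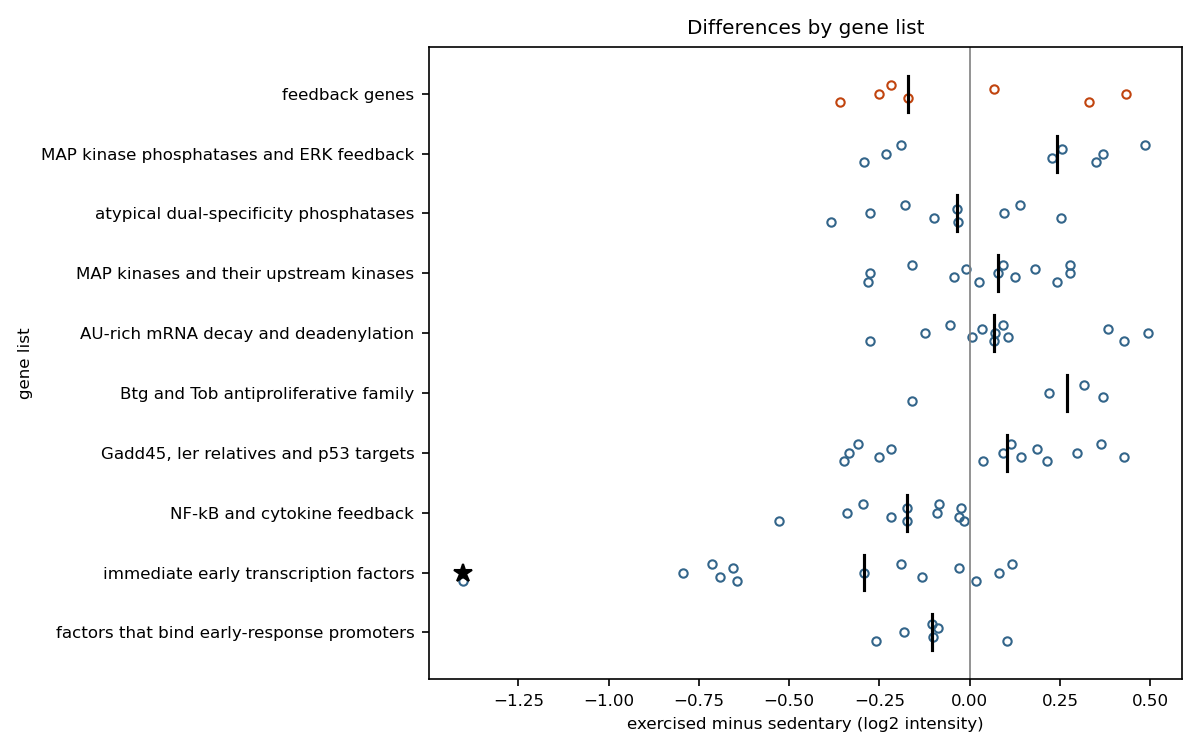
Exercised minus sedentary difference on the log2 scale of each tested gene of the 7 feedback genes (orange) and of 9 related lists (blue), with black bars at the list medians and a star for the 1 gene that passed an adjusted p of 0.05. Fos stands apart at -1.40, the feedback genes lie between -0.36 and 0.43, and all 11 NF-kB and cytokine feedback genes lie below 0, a count that is 4 of 11 with median scaling.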

How the data were processed

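Biotin-labelled cRNA from 12 total RNA samples of whole heart was read on Illumina beadchips. The deposited values were an unnormalized intensity and a detection p-value per probe and array, per the file headers. The authors' processed values lie near a log2 scale; lumi is named in the submitters' processing notes, with no transformation stated. The array medians of raw intensity ran from 48.6 to 138.6, and 16619 to 18708 probes were detected.

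Background correction and quantile normalization used neqc (offset 16, background from detection p-values). The filter described above kept 17098 of 45281 probes. Of all probes, the platform annotation gave 34885 a single symbol, 18 several and 10378 none. A gene stood by its kept probe of highest mean, except that the levels and group differences are given for every probe of a feedback gene. The group difference, each probe minus Fos, and the slope on Fos with group as a term were fitted in limma 3.58.1 (R 4.3.3; lmFit, then eBayes with an intensity trend) over all kept probes, with Benjamini-Hochberg adjustment at 0.05. The fits were tested on simulated data with independent noise, in which arrays did not differ in background or liver transcripts. There the group fit called 38.8% of 1.5-fold, 86.6% of 2-fold and 93.9% of 3-fold changes. A change of the size estimated for the feedback genes can therefore go uncalled.

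The members, lists and tests were chosen with earlier results of these data known. Named genes were the members, Fos, the called genes (up to 4) or otherwise up to 3 of smallest p in each of 9 lists, and the gene most like each member. Correlation p-values came from 100000 permutations within groups. An array whose 5th percentile of raw intensity exceeded 75 was called high in background. Slide and scan time were not used here. Promoters are from RefSeq.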

Additional observations from a re-analysis of the deposited data

Results flagged for a closer look

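No feedback probe had an array far from the rest of its group by the gap between neighbours relative to the range. Among the 80 groups of 6 values examined, from the feedback probes, Fos, the list genes and the genes most like a member, 4 had such an array, and chance alone gives about 1 in 20, or 4. Cnot1, the scaffold of the deadenylase complex, was at 8.8 in sedentary replicate 2, against 7.37 to 7.84 in the other sedentary arrays. Parn, a poly(A) ribonuclease, was at 7.26 in the same array, against 6.4 to 6.69. Bcl3, an atypical member of the IkB family, was at 6.02 in sedentary replicate 6, against 5.08 to 5.36. Fcgr2b, the gene most like Dusp6, was at 7.49 in exercised replicate 3, against 7.17 to 7.28 in the other exercised arrays.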

How the results depend on the processing

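The count of all probes called was 15 and depended on the processing. It was 0 with median scaling, 1 each with cyclic loess, the deposited values, no filter, detection on at least 3 arrays, no intensity trend, the hepatocyte covariate, or without exercised replicates 1, 5 and 6, 4 with the background block and hepatocyte covariate together, 25 with detection on 12 arrays, 37 with the background block and 576 with array weights. Leaving out 1 array gave 1 to 266, the latter without sedentary replicate 2. Median scaling moved the median of all probes from -0.03 to 0.16, and the probes at an unadjusted p under 0.05 from 849 higher and 1651 lower to 948 higher and 376 lower. The feedback genes called were 0 except for 2 with array weights (Dusp1 at -0.41, limma adjusted p 0.049, and the Dusp6 dimmer probe at -0.60, limma adjusted p 0.021) and 1 without sedentary replicate 2, so leaving out 1 array gave 0 to 1. The fit within the 4 high-background arrays, of which 1 is sedentary, was chosen after seeing the data.

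Signs turned as follows. With median scaling Dusp4 was at 0.03, Crem at 0.128 and Eola1 at 0.16. Dusp4 was at 0.002 with the hepatocyte covariate and 0.04 with both terms. Zfp36 was at -0.008 with array weights, -0.094 with the background block, -0.11 in low-background arrays, -0.108 with both terms and -0.053 in high-background arrays. Thumpd2 was at -0.018, -0.037 and -0.073 in the first 3 of these settings, and in low-background arrays Atrn was at -0.058 and Eola1 at 0.038. In high-background arrays Gadd45b was at -0.122, Dusp19 at 0.066, Cnot1 and Gadd45a at -0.056, Tob2 at -0.093, Btg1 at 0.067, Tob1 at -0.216 and Crem at 0.02. Leaving out 1 array gave -0.045 to 0.165 for Zfp36 and -0.026 to 0.129 for Thumpd2. Dusp1, Dusp5, Ier3 and both Dusp6 probes kept their direction throughout. The list counts, the distances from Fos, the slopes on Fos and the shift between the Dusp6 probes under these settings were added after seeing the data. The cause of these changes was not tested.

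The groups share replicate numbers, but same-numbered arrays' deviations correlated from -0.32 to 0.61 and passed 0.1 in 3 of 6 pairs, and 4 of 12 arrays correlated best with their own number, so the numbers are not taken as pairs. With the replicate block 3 probes and 0 feedback genes were called. The 3 genes not above background have no measured difference.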
